A study of Arabidopsis thaliana with 30 samples.

Results

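Transcripts of 7 iron storage genes of Arabidopsis thaliana were followed through sorted root cell types: the ferritin genes FER1 (AT5G01600), FER2 (AT3G11050), FER3 (AT3G56090) and FER4 (AT2G40300), and the vacuolar iron transporter-like genes VTL1 (AT1G21140), VTL2 (AT1G76800) and VTL5 (AT3G25190). The genes were chosen by locus identifier, as 7 of the 32833 gene rows of the count table. All 7 passed the filter on low counts, which kept 24866 genes.

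The study compared seedlings raised for 6 days with low phosphate (LPi) and with high phosphate (HPi), in order to ask how each root cell type responds. Fluorescent cells of 5 reporter lines, all labelled wild type, were sorted: the epidermis by WER::GFP, the cortex by J0571, the pericycle by J0661, the stele by SHR::GFP and the lateral root cap by J3411. WER::GFP and SHR::GFP use the promoter in their name, and the other 3 lines are enhancer traps. All seedlings grew at 22 °C on half-strength MS medium, with 16 h of light and 8 h of darkness. How much phosphate LPi held is uncertain, because one label states 5 µM and another states none. Each of the 10 groups had 3 libraries, which made 30 libraries. Each cell type came from 1 line, so that cell type and line cannot be told apart, and the labels do not say whether replicates were separate cultures.

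Plants keep iron in plastids and in vacuoles. Ferritins are protein cages of the plastids (and, in part, of mitochondria) that hold iron in a safe form, while transporters of the vacuolar membrane load iron into the vacuole. FER1, FER3 and FER4 are known from vegetative tissues and FER2 mainly from seeds. VTL proteins moved iron into vacuoles in yeast, and their genes are known to be repressed when Arabidopsis lacks iron. The FER1 gene is a known meeting point of iron and phosphate nutrition, since the phosphate starvation factors PHR1 and PHL1 can bind it.

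In the TAIR10.1 assembly FER1 lies at chr5:227953-230051 on the minus strand, FER2 at chr3:3463477-3465506 on the plus strand, FER3 at chr3:20813904-20816035 and FER4 at chr2:16831109-16833294, both on the minus strand. All 4 ferritin genes have 8 exon blocks. The VTL genes lie on the plus strand, VTL1 at chr1:7404328-7405426, VTL2 at chr1:28829243-28830278 and VTL5 at chr3:9174398-9175866, with 1, 1 and 2 exon blocks. FER1 overlaps an antisense long non-coding gene, AT5G01595, and the cDNA kit does not mark strand, so the reads of both cannot be told apart. FER2 overlaps AT3G11040 and FER4 overlaps AT2G40290, each on the same strand, and how reads in the overlap were assigned is not given in the sources used here. FER3 and the VTL genes overlap no annotated gene. The coding sequences of FER3 and FER4 were 79.3% identical, those of the other ferritin pairs 70.5% to 72.0%, and those of VTL1 and VTL2 77.1%. No stretch of 100 exonic bases of any of the 7 genes occurred elsewhere in the genome.

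The region before the start of FER3 and FER4 is shown because both genes carried a G-box there, and that of FER1 because it did not. Each line gives the 120 bases before the annotated RefSeq start, 5′ to 3′ on the strand of the gene, with the G-box (CACGTG, read on both strands) in capitals. FER3 is chr3:20816036-20816155, FER4 is chr2:16833295-16833414 and FER1 is chr5:230052-230171, all on the minus strand.
FER3: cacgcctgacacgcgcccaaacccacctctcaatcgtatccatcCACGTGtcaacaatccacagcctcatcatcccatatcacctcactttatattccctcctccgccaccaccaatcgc
FER4: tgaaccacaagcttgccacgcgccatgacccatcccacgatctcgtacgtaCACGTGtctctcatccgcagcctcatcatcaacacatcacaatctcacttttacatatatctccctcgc
FER1: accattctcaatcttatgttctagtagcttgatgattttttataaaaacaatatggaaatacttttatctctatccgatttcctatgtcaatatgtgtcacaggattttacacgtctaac
The G-box began 76 bases before the start of FER3 and 69 bases before that of FER4. A stretch of 13 bases, cagcctcatcatc, followed it in both and occurred in 2 of the 27444 promoters of nuclear protein-coding genes, which are these 2. In windows from 250 bases before to 50 bases after the start, FER2 also held a G-box, after its start, and 7.68% of all promoters held one. The PHR1 binding sequence P1BS (GNATATNC, both strands) was in none of the 7 windows and in 6.25% of all promoters, and the iron-dependent regulatory sequence IDRS, searched by pattern on both strands, was in none of the 27444 windows. Bases outside these windows were not searched, so a gene may carry either sequence there.

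The same region of the VTL genes is shown because all 3 were called in one cell type, with the longest run of bases that the 3 have in common in capitals. VTL1 is chr1:7404208-7404327, VTL2 is chr1:28829123-28829242 and VTL5 is chr3:9174278-9174397, all on the plus strand.
VTL1: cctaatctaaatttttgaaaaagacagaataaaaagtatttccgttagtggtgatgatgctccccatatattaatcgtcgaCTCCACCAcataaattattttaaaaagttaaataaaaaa
VTL2: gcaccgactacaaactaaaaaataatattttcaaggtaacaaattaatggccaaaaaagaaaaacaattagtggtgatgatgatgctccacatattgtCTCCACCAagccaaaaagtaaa
VTL5: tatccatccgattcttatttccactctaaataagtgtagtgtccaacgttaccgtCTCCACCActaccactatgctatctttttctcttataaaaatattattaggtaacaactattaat
The run of 8 bases occurred, on either strand, in 0.383% of all regions of this length. VTL1 and VTL2 also had 15 bases in common, ttagtggtgatgatg, which occurred in 2 of the 27444 regions, these 2. A match is a description of the letters only.

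Libraries held 427064 to 122076663 reads assigned to genes (median 16836088.5), and 16455 to 29409 genes were detected in a library. Levels are given as CPM, read counts relative to the TMM-scaled library size, and 3 reads corresponded to 0.0256 CPM in the deepest library and to 4.98 CPM in the shallowest. The 3 libraries with the fewest reads were LPi replicate 1 and HPi replicate 1 of the stele and LPi replicate 3 of the pericycle. The mean correlation of a library with the others of its sort was 0.677 in pericycle LPi replicate 3 and 0.726 in stele LPi replicate 1, against 0.819 to 0.950 in the other 28. Replicate 3 of the epidermis at LPi and at HPi were nearly identical (biological coefficient of variation between them 0.0502, against 0.138 for the next closest pair of libraries). The sort labelled cortex carried 5 endodermis markers at a summed 2670 to 5770 CPM at LPi and 3220 to 8160 CPM at HPi, while the 3 cortex markers summed to 29.1 to 39.9 CPM and 28.7 to 43.8 CPM, so it is called the cortex sort by its label only. The epidermis sort carried 5 root cap markers at 779 to 1210 CPM at LPi and 970 to 1200 CPM at HPi. Xylem markers summed to 1220 to 4640 CPM in the stele sort at LPi and to 1580 to 2780 CPM at HPi. The 2 stele markers summed there to 38.2 to 74.1 CPM at LPi and 28.2 to 81 CPM at HPi. In the epidermis sort they summed to 115 to 120 CPM and 85.2 to 121 CPM. The 2 phloem markers summed in the stele sort to 34.9 to 143 CPM at LPi and 107 to 136 CPM at HPi. In the pericycle sort they summed to 78.1 to 217 CPM and 193 to 323 CPM. The 2 pericycle markers summed in the pericycle sort to 42.7 to 99.8 CPM at LPi and 15.4 to 36.2 CPM at HPi. In the stele sort they summed to 21.6 to 48.1 CPM and 11.4 to 27.5 CPM, and elsewhere to 11 CPM or less. The stele and pericycle sorts, too, are named by their labels.

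FER1 transcripts were highest in the cortex sort, at LPi and at HPi. Set against the mean of the other 4 cell types, FER3 was called higher in the epidermis at both phosphate levels and in the stele at HPi. In the same way FER4, VTL1, VTL2 and VTL5 were called higher in the stele at HPi. In these bulk samples fewer cells that carry a transcript and less transcript in each cell cannot be told apart. Per kilobase of exon, the mean level at HPi in the stele was 185.6 ± 13.1 CPM for FER1, 161.2 ± 10.5 for FER3, 15.8 ± 8.63 for FER4 and 6.63 ± 2.22 for FER2 (SD, n = 3 libraries). In the cortex sort at HPi it was 415.3 ± 22.0 CPM per kilobase for FER1 and 54.4 ± 23.0 for FER3. FER1 and FER3 were thus the ferritin genes with the highest level per length in both.

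FER1, the ferritin gene best known for its response to excess iron, stood at 620.6, 790.1 and 681.3 CPM in the cortex libraries at LPi, against 579.4, 565.6 and 625.3 CPM in those at HPi. In the stele it stood at 189.3, 276.3 and 209.3 CPM at LPi, against 262.8, 282.7 and 245.6 CPM at HPi. The pericycle held 50.1, 133.5 and 209.4 CPM at LPi, against 42.3, 119.6 and 131.7 CPM at HPi. Every cortex library was above every library of the other 4 cell types, at LPi and at HPi, and in each of the 3 cell types the LPi and HPi libraries overlapped. The epidermis held 244.6, 188.1 and 111.2 CPM at LPi, against 372.6, 407.8 and 112.0 CPM at HPi. The lowest of each set was replicate 3, the nearly identical pair. The lateral root cap held 171.2, 105.9 and 121.5 CPM at LPi, against 215.8, 98.5 and 209.1 CPM at HPi. With the cortex sort set against the mean of the other 4, FER1 was higher by 2.10 on the log2 scale at LPi (SE 0.32, adjusted p = 2.4e-05) and by 1.63 at HPi (SE 0.32, adjusted p = 0.000669). The endodermis markers were also highest in the cortex sort. For LPi against HPi in that sort all 5 had a fitted change below 0 (median -0.61, none called), while that of FER1 was 0.24. Their part in the FER1 result was not tested. At HPi FER1 was lower in the pericycle than the mean of the other 4 cell types (log2 difference -1.61, SE 0.40, adjusted p = 0.00476). That call was lost without pericycle HPi replicate 1, which had the lowest value (adjusted p = 0.0589, against 1.54e-05 to 0.0589 over 38 alternatives). At LPi the pericycle difference was -0.93 (adjusted p = 0.0827).

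FER3, a ferritin gene of vegetative tissues, was highest in the stele at HPi. Stele libraries held 94.7, 148.2 and 144.2 CPM at LPi, against 210.4, 216.5 and 190.9 CPM at HPi. Epidermis libraries held 142.9, 115.8 and 161.2 CPM at LPi, against 153.2, 125.3 and 161.8 CPM at HPi. The stele libraries at LPi all lay below those at HPi, while the epidermis libraries overlapped. The pericycle was at the low end with 23.5, 54.4 and 22.8 CPM at LPi, against 22.9, 44.6 and 52.7 CPM at HPi. The cortex sort held 104.4, 100.4 and 74.7 CPM at LPi, against 51.3, 103.3 and 53.8 CPM at HPi. The lateral root cap held 112.3, 70.7 and 69.4 CPM at LPi, against 85.1, 78.6 and 59.4 CPM at HPi. At HPi the order of the means was stele, epidermis, lateral root cap, cortex and pericycle, and the neighbours among the last 3 overlapped. At LPi the order was epidermis, stele, cortex, lateral root cap and pericycle, and of the neighbours only the lateral root cap and the pericycle did not overlap.

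Against the other 4 cell types FER3 was higher in the epidermis, by 0.87 on the log2 scale at LPi (SE 0.26, adjusted p = 0.0199) and by 0.86 at HPi (SE 0.26, adjusted p = 0.0199). The call at LPi was lost when LPi replicate 1, LPi replicate 3 or the nearly identical pair was left out (adjusted p 0.000107 to 0.0909 over 38 alternatives). In the stele it was higher at HPi, by 1.47 (SE 0.26, adjusted p = 0.000127), and at LPi the difference was 0.73 (adjusted p = 0.0732). In the pericycle it was lower, by a log2 difference of -1.68 at LPi (SE 0.32, adjusted p = 0.000194) and -1.48 at HPi (SE 0.31, adjusted p = 0.00104). The 3 calls in the stele and pericycle held in each of 38 alternatives. In the lateral root cap sort FER3 was not called (log2 difference -0.05 at LPi and -0.36 at HPi). The root cap markers of the epidermis sort, given above, summed there to 972 to 1370 CPM at LPi and 603 to 1780 CPM at HPi. The 4 epidermis markers summed there to 117 to 246 CPM at LPi and 97.5 to 165 CPM at HPi. In the epidermis sort they summed to 136 to 229 CPM and 110 to 219 CPM. Each of these sorts thus carried the markers of the other. The part of both marker lists in the FER3 results was not tested.

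FER4, a ferritin also reported from mitochondria, was a low transcript whose mean was highest in the stele, then in the pericycle and then in the cortex sort, at both phosphate levels. Stele libraries held 3.32, 13.02 and 19.9 CPM at LPi, against 7.39, 27.0 and 25.1 CPM at HPi. Pericycle libraries held 5.06, 13.3 and 2.17 CPM at LPi, against 13.5, 19.2 and 13.03 CPM at HPi. The lowest stele value of each set came from replicate 1, the shallow libraries, with 2 reads at LPi and 11 at HPi. The cortex sort held 4.03, 8.65 and 6.36 CPM at LPi, all below the 11.2, 8.80 and 9.70 CPM at HPi. The epidermis held 3.42, 3.28 and 6.28 CPM at LPi, against 4.57, 1.48 and 5.68 CPM at HPi. The lateral root cap held 2.59, 4.66 and 2.91 CPM at LPi, against 0.687, 2.38 and 9.08 CPM at HPi. In the stele FER4 was higher than the mean of the other 4 cell types at HPi by 1.52 on the log2 scale (SE 0.50, adjusted p = 0.0343), and at LPi the difference was 1.34 (SE 0.52, adjusted p = 0.0900). The call at HPi was lost without any 1 of 10 libraries: HPi replicates 1 and 2 and LPi replicate 1 of the epidermis, HPi replicates 1 and 3 and LPi replicate 3 of the cortex, HPi replicate 3 of the pericycle, HPi replicates 2 and 3 of the stele, and HPi replicate 2 of the lateral root cap (adjusted p 7.76e-07 to 0.255 over 38 alternatives).

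FER2, the ferritin gene known from seeds, was at 10.08 CPM or less in 29 libraries and very high in 1. Pericycle libraries held 0.699, 3.28 and 460.0 CPM at LPi, against 2.95, 2.49 and 3.22 CPM at HPi. The high value was 424 reads in replicate 3, the library with 1863306 reads that stood apart from its sort. The TMM factor of this library was 0.495, against 0.769 to 1.41 in the others, and a low factor raises every CPM of its library. Its pericycle markers summed to 99.8 CPM, its root cap markers to 78.1 CPM (against 2.96 and 3.29 CPM in the other 2 LPi libraries) and its phloem markers to 78.1 CPM. Their part in the FER2 value was not tested. The stele held 1.66, 4.16 and 3.62 CPM at LPi, all below the 10.08, 7.76 and 4.98 CPM at HPi, and the first LPi value was 1 read. The epidermis held 2.56, 2.62 and 2.26 CPM at LPi, all above the 2.20, 1.48 and 2.16 CPM at HPi. The cortex sort held 0.755 to 1.31 CPM at LPi and 0.614 to 2.41 CPM at HPi, and the lateral root cap 0.881 to 3.49 CPM and 0.687 to 7.37 CPM. FER2 was called in the pericycle at LPi against the other 4 cell types (log2 difference 6.15, SE 0.82, adjusted p = 6.36e-06). Without pericycle LPi replicate 3 the difference was -0.09, so the call rests on that library (adjusted p 3.01e-08 to 1 over 37 alternatives, DESeq2 giving none).

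**Figure D1:**
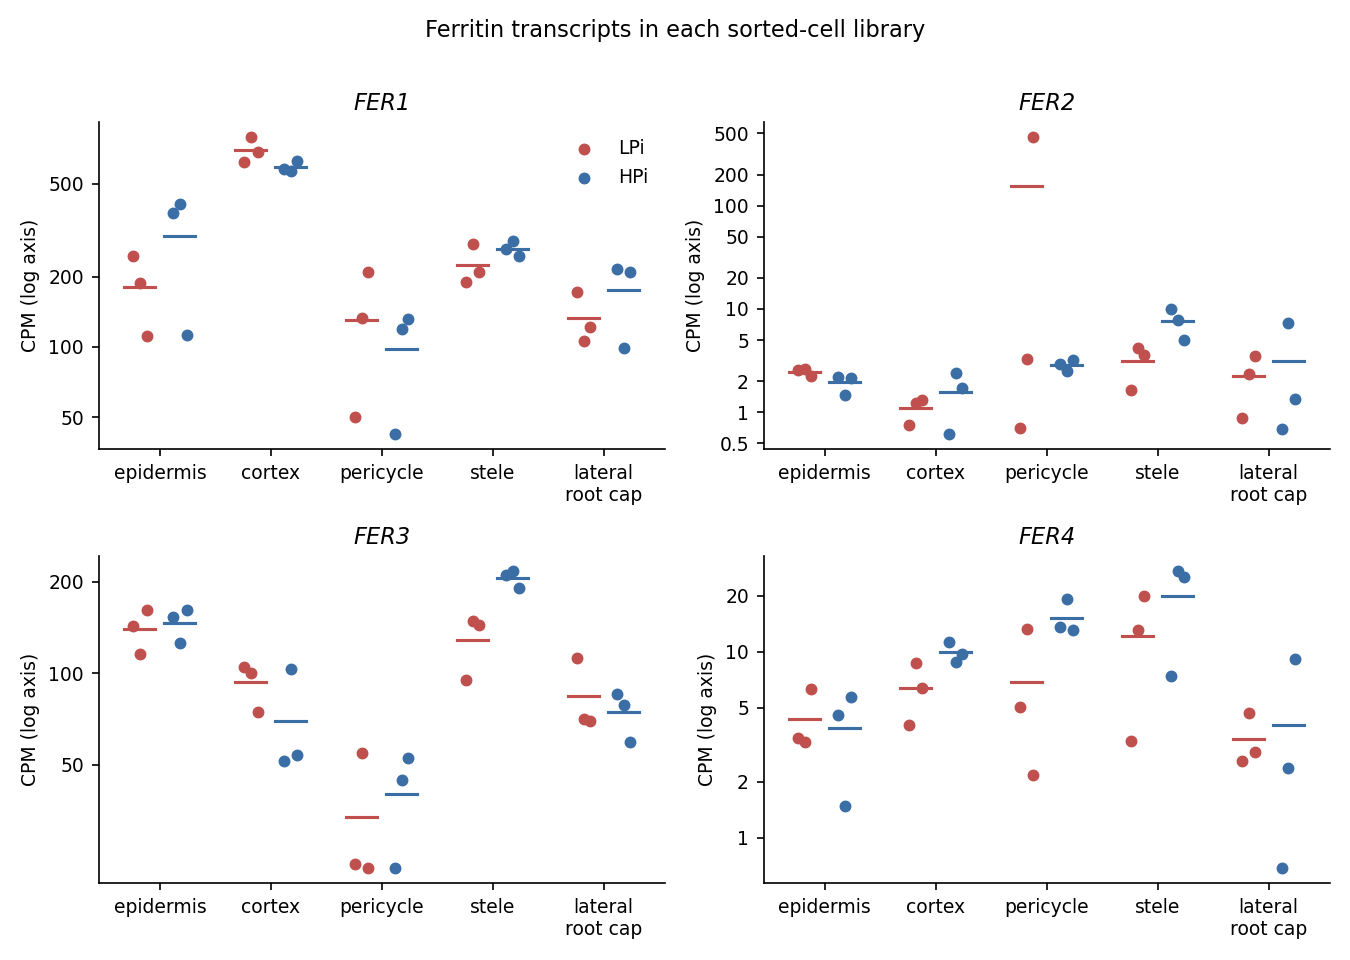
Level of the 4 ferritin transcripts in each library, in TMM-scaled CPM on a log axis, by sorted cell type, with LPi libraries in red and HPi libraries in blue and a bar at the mean of the 3. FER1 stands at 565.6 CPM or more in the 6 cortex libraries and at 407.8 CPM or less in all others, and 1 pericycle LPi library holds FER2 at 460.0 CPM.

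VTL1, a vacuolar iron transporter-like gene, was read mainly in the stele and the pericycle. Stele libraries held 1.66, 5.18 and 5.88 CPM at LPi, against 2.02, 10.2 and 12.7 CPM at HPi. Pericycle libraries held 4.69, 4.13 and 11.9 CPM at LPi, against 2.36, 4.47 and 5.31 CPM at HPi. The first stele value at LPi was 1 read, the first at HPi 3 reads, and the highest pericycle value at LPi 11 reads. In the other 3 cell types VTL1 did not exceed 2.44 CPM in any library, and 6 of those 18 libraries had no read. Against the mean of the other 4 cell types VTL1 was higher in the stele at HPi, by 3.71 on the log2 scale (SE 0.97, adjusted p = 0.00696), a call lost without stele HPi replicate 3 (adjusted p 4.17e-08 to 0.0635 over 38 alternatives). In the pericycle it was higher at LPi, by 2.82 (SE 1.02, adjusted p = 0.0467). That call was past the threshold in 14 of 38 alternatives (adjusted p 0.00361 to 0.213), and of the 30 fits that leave out 1 library it held only without HPi replicate 1 or LPi replicate 2 of the epidermis, HPi replicate 1 or 2 or LPi replicate 1 of the cortex, HPi replicate 1 of the stele, or HPi replicate 2 or 3 or LPi replicate 3 of the lateral root cap. The differences were 2.38 for the pericycle at HPi (adjusted p = 0.0899) and 2.13 for the stele at LPi (adjusted p = 0.18).

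VTL5, of the same family, was read mainly in the stele. Stele libraries held 1.66, 2.999 and 1.30 CPM at LPi, against 0.672, 5.65 and 5.98 CPM at HPi, and the first of each set was 1 read. Elsewhere the highest value was 2.17 CPM, in pericycle LPi replicate 3, which was 2 reads. The next was 0.723 CPM in an epidermis library at LPi. In the stele VTL5 was higher at HPi than the mean of the other 4 cell types, by 5.05 on the log2 scale (SE 1.21, adjusted p = 0.00353), in each of 37 alternatives. At LPi the difference was 2.79 (SE 1.31, adjusted p = 0.173).

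VTL2, also of this family, was the scarcest of the 7 genes. Stele libraries held 0, 0 and 0.693 CPM at LPi, against 0.672, 1.63 and 2.45 CPM at HPi, which were 39 reads in all at LPi and 130 at HPi. The LPi and HPi libraries of the stele overlapped, by the 1 read of the shallow HPi library. Lateral root cap libraries held 1.37, 0.194 and 0 CPM at LPi and no read at HPi. Epidermis libraries held 0, 0.764 and 0.393 CPM at LPi, against 0, 0 and 0.0323 CPM at HPi, and the cortex sort held 6 reads at LPi and none at HPi. The pericycle held no read at LPi and 7 reads, all in replicate 2, at HPi. At HPi the pooled stele level was 1.87 CPM, while the cortex sort and the lateral root cap had 0 reads. That level was 54.3-fold what 3 reads over the 3 libraries would give in the cortex sort, and 26.8-fold in the lateral root cap. These folds take no account of the spread between libraries. VTL2 was called in the stele at HPi against the other 4 cell types (adjusted p = 0.000765), in each of the 36 alternatives that gave an adjusted p (DESeq2 gave none).

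**Figure D2:**
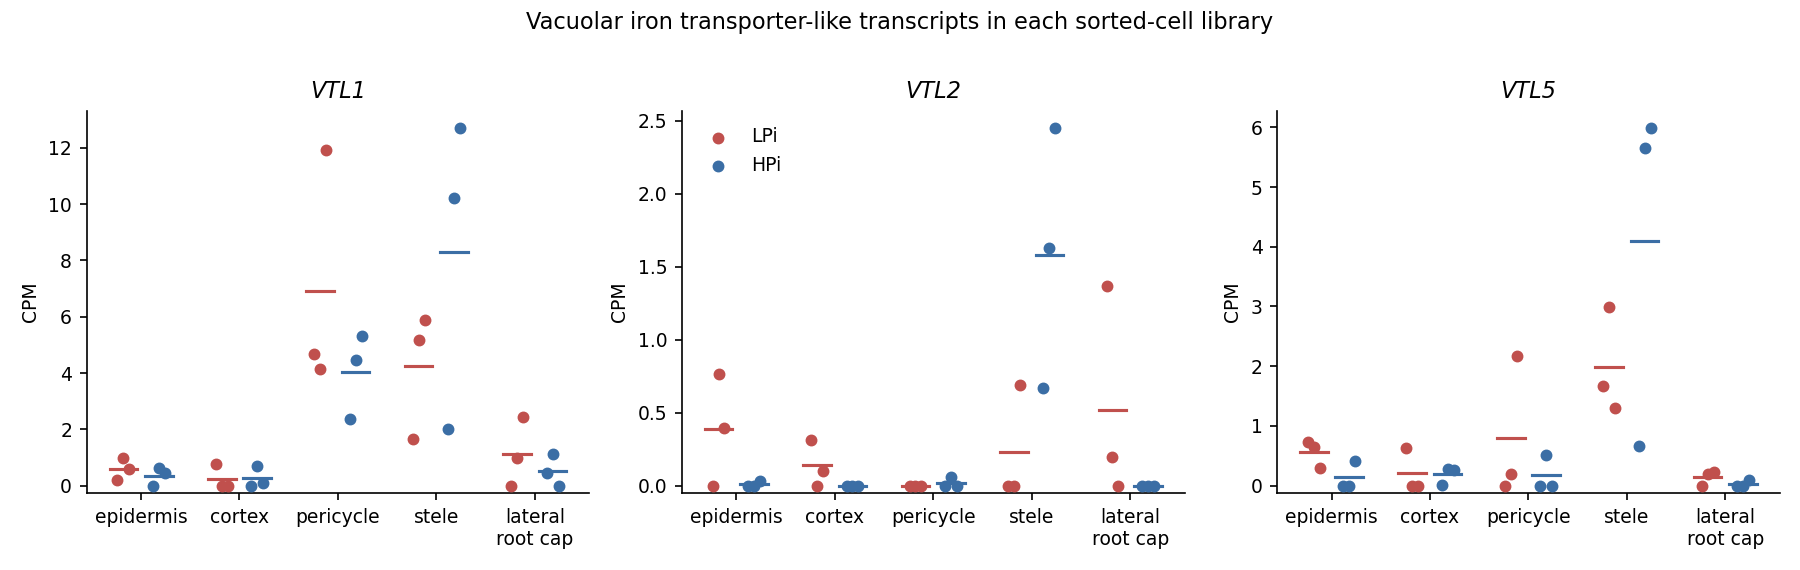
Level of the 3 VTL transcripts in each library, in TMM-scaled CPM on a linear axis from 0, by sorted cell type, with LPi libraries in red and HPi libraries in blue and a bar at the mean of the 3. The stele holds the highest HPi values of each gene (12.7, 2.45 and 5.98 CPM), and VTL1 alone is also read in every pericycle library.

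Counted over the 7 genes at HPi, 5 were higher in the stele than the mean of the other 4 cell types (FER3, FER4, VTL1, VTL2 and VTL5). For FER4 and VTL1 the stele and pericycle libraries overlapped at HPi, so the stele is not shown to exceed the pericycle. Of all genes tested, 17.7% were called in the stele at HPi in either direction. The median log2 difference was 1.69 over the 7 there and 1.60 without VTL2, against -0.03 over all genes tested. The stele call held for FER3, VTL2 and VTL5 without each library in turn, but not for FER4 and VTL1. In the pericycle 2 were lower at HPi (FER1 and FER3), with 20.4% of all genes called. FER3 was the 1 gene called in the epidermis and FER1 the 1 called in the cortex sort, where 17.8% and 11.4% of all genes were called. In the lateral root cap edgeR called 0 of the 7, with 23.9% of all genes called, while 1 of the 7, FER4, had an unadjusted p under 0.05 and was called by limma voom, and DESeq2 called 0. Over all genes there, 37.9% had an unadjusted p under 0.05, and limma voom called 5527 and DESeq2 7070.

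At LPi, in libraries labelled as separate, 1 of the 7 was called in the epidermis (FER3, against 19.5% of all genes) and 1 in the cortex sort (FER1, against 10.3%). In the pericycle 3 were called, FER2 and VTL1 higher and FER3 lower, against 21.8% of all genes. Of these, the FER2 call rested on 1 library and the VTL1 call held in 14 of 38 alternatives. In the stele edgeR called 0 of the 7, against 12.4% of all genes, although 4 (FER3, FER4, VTL1 and VTL5) had an unadjusted p under 0.05. There limma voom called the same 4 and DESeq2 called 0. Over all genes in the stele at LPi, 25.8% had an unadjusted p under 0.05, and limma voom called 7390 and DESeq2 4035. In the lateral root cap edgeR called 0, against 21.3% of all genes, 1 (FER1) had an unadjusted p under 0.05 and was called by limma voom, and DESeq2 called 0, while over all genes 34.9% had an unadjusted p under 0.05, limma voom called 7021 and DESeq2 6234. The calls of FER3 in the pericycle and of FER1 in the cortex sort were thus read at both phosphate levels. That of FER3 in the epidermis was too, but its LPi libraries included 1 of the nearly identical pair. Its call at LPi was lost without that pair, LPi replicate 1 or LPi replicate 3. That 5 genes were called in the stele at HPi and none at LPi does not show a difference between the phosphate levels, whose own test follows.

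**Figure D3:**
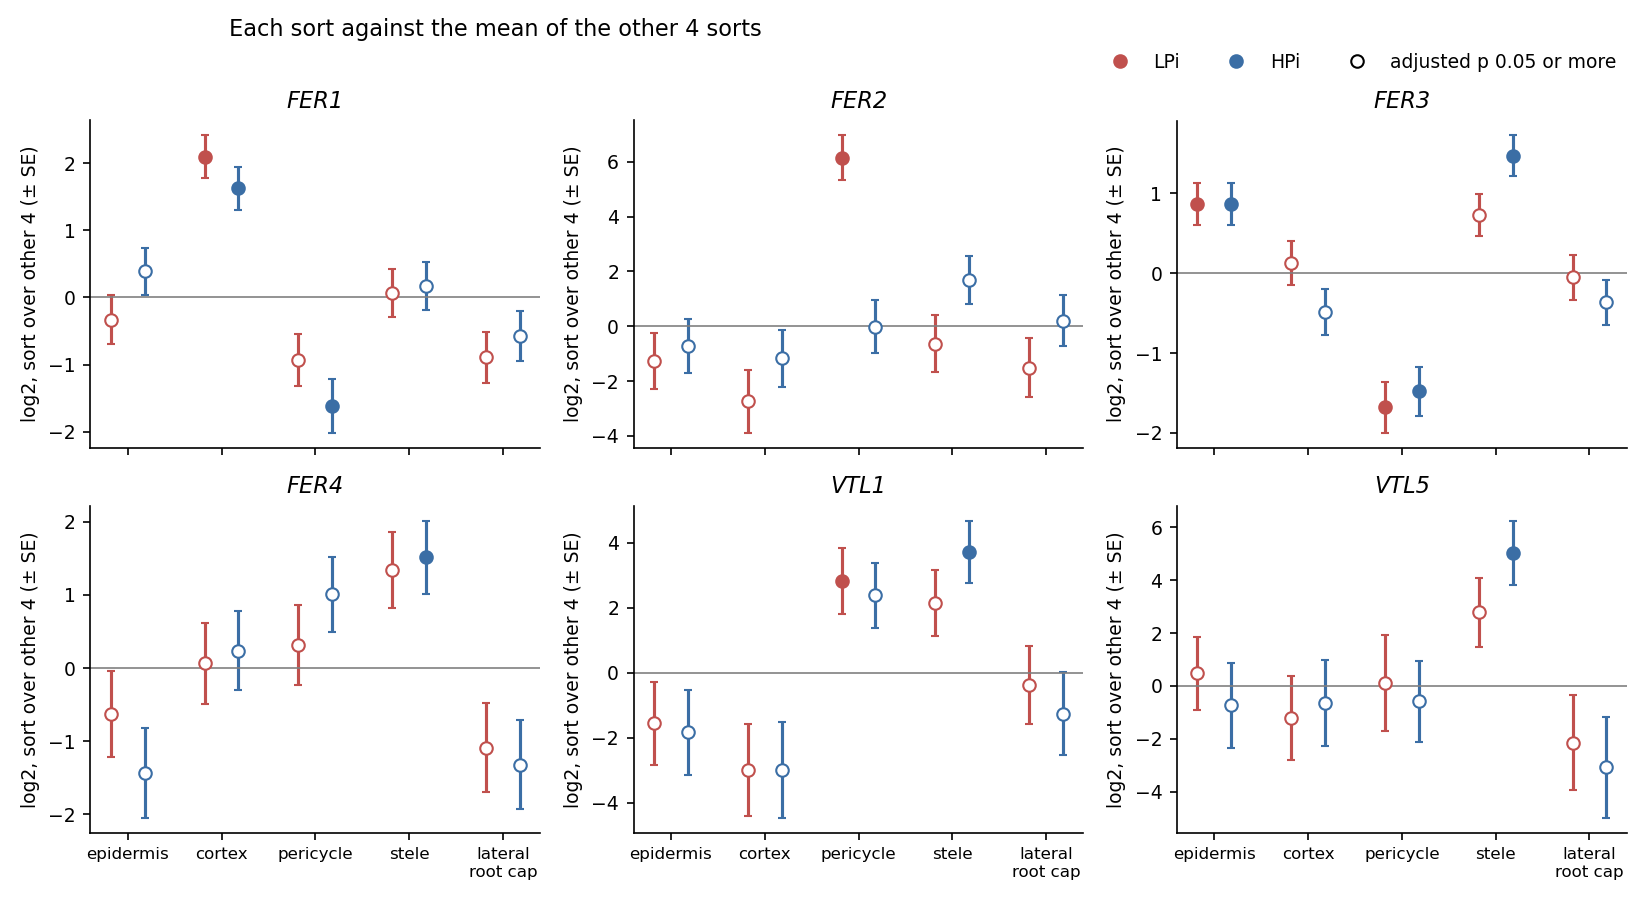
Log2 difference (± SE) of each cell type from the mean of the other 4, for 6 of the genes, at LPi (red, left) and at HPi (blue, right), with filled points for an adjusted p under 0.05. VTL2 is left out because the size of its fitted difference depends on the prior count where a group had no read. FER1 in the cortex sort (2.10 at LPi and 1.63 at HPi) and FER3 in the pericycle (-1.68 and -1.48) are called at both phosphate levels.

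The question of the study was the response to phosphate within each cell type. For these genes edgeR called 0 of 7 for LPi against HPi in every cell type. Over all genes tested the share called was 0% in the epidermis, 0% in the cortex sort, 0.00402% in the pericycle (1 gene), 0% in the stele and 0.0241% in the lateral root cap (6 genes). The response averaged over the 5 cell types also called 0 of the 7, against 0.00402% of all genes (1 gene), and the joint test of whether the response differs between cell types called 0 of the 7, against 0% of all genes. In the epidermis, cortex and stele sorts and the joint test, where edgeR called 0 genes in all, 243, 1221, 758 and 1334 genes had an unadjusted p under 0.05, DESeq2 called 2, 22, 30 and 38, and limma voom called 0, 2, 77 and 56. In the pericycle, the lateral root cap and the average 3063, 1679 and 1711 genes had an unadjusted p under 0.05, DESeq2 called 1494, 139 and 38, and limma voom called 1, 0 and 2. By unadjusted p under 0.05 there were, of the 7 genes, 0 in the epidermis, 1 in the cortex sort (VTL2), 1 in the pericycle (FER2), 0 in the stele, 1 in the lateral root cap (VTL2), 0 in the average and 2 in the joint test (FER2 and VTL2). DESeq2 and limma voom called 0 of the 7 in each of these comparisons, but DESeq2 gave no adjusted p for FER2 in the pericycle. A p that misses the threshold does not show that the levels were equal.

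In the epidermis the largest fitted change among the ferritins was that of FER1, -0.71 on the log2 scale (SE 0.45, adjusted p = 1), and in the cortex sort that of FER4, -0.64 (SE 0.70, adjusted p = 1). FER1 in the cortex sort, where it was highest, changed by 0.24 (SE 0.45, adjusted p = 1). FER3 was the most tightly measured gene, with changes of -0.07, 0.43, -0.23, -0.67 and 0.18 in the epidermis, cortex, pericycle, stele and lateral root cap sorts and an SE of 0.35 to 0.36 in each. None of these was past the threshold.

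FER2 had the largest fitted change among the ferritins, 5.72 in the pericycle (SE 1.396, adjusted p = 0.105), and it rested on 1 library. Without pericycle LPi replicate 3 it was -0.42 (adjusted p = 1), without LPi replicate 1 it was 6.27 (adjusted p = 0.00271) and without LPi replicate 2 it was 6.26 (adjusted p = 0.00593). Over 39 alternatives the adjusted p ranged from 0.00271 to 1, while DESeq2 fitted a change of 6.25 and gave no adjusted p. With RLE size factors (adjusted p = 0.0349) and with a filter of 5 CPM in 3 libraries (adjusted p = 0.0491) the gene was called.

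In the stele the fitted change was below 0 for all 7 genes, though none was called, and it stayed below 0 for each of them under every alternative that gave a value. The values were -0.23 for FER1, -1.06 for FER2, -0.67 for FER3, -0.64 for FER4, -0.90 for VTL1, -2.41 for VTL2 and -1.05 for VTL5, and the median of -0.90 stood beside -0.04 over all genes tested. Their SEs ran from 0.36 for FER3 to 2.01 for VTL2. The stele LPi libraries also held root cap markers at a summed 106 to 327 CPM, against 115 to 123 CPM at HPi. The 4 epidermis markers summed to 48.2 CPM in LPi replicate 1 and 0.249 and 4.93 CPM in the other LPi libraries, against 1.78 to 2.69 CPM at HPi, and all 4 had a fitted change above 0 (median 1.7, none called). The 5 endodermis markers summed to 2.98 to 241 CPM at LPi and 16.1 to 1010 CPM at HPi, highest in replicate 1 of each, and all 5 had a fitted change below 0 (median -2.26, none called). The part of these markers in the values was not tested. In the other cell types VTL2 had groups with no read or 1 read, and of the other 6 genes 4 had a fitted change above 0 in the epidermis, 4 in the cortex sort, 4 in the pericycle and 3 in the lateral root cap, with medians of 0.25, 0.27, 0.56 and -0.07. The medians over all genes tested were 0.08, -0.06, -0.26 and 0.02 in the same order.

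LPi and HPi libraries did not overlap for FER2 in the epidermis, FER4 in the cortex sort, and FER2 and FER3 in the stele. These were 1, 1, 0, 2 and 0 of the 7 genes in the epidermis, cortex, pericycle, stele and lateral root cap sorts, beside 6.70%, 8.64%, 14%, 8.70% and 7.80% of all genes tested. FER3 in the stele had a mean of 129.0 ± 29.8 CPM at LPi and 205.9 ± 13.4 CPM at HPi (SD, n = 3 libraries each), a change of -0.67 (SE 0.36, adjusted p = 1).

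**Figure D4:**
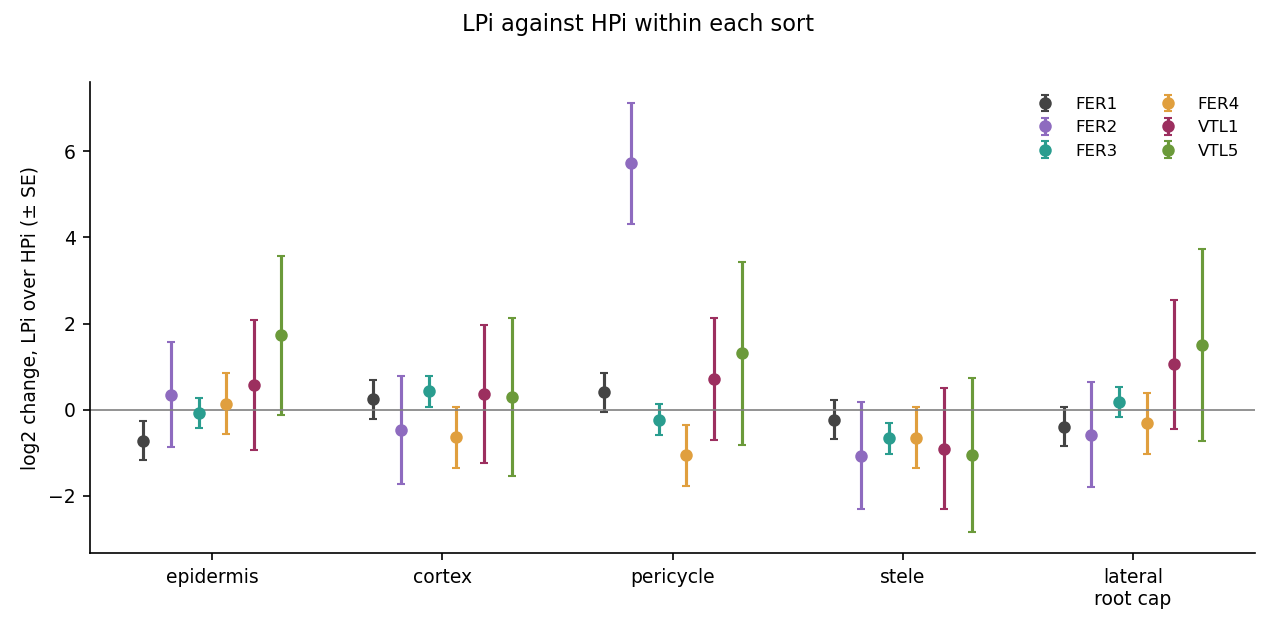
Log2 change (± SE) of LPi over HPi within each cell type for 6 of the genes, with VTL2 left out because the size of its fitted change depends on the prior count where a group had no read. None had an adjusted p under 0.05, the FER2 point at 5.72 in the pericycle rests on 1 library, and the 6 points of the stele lie below 0.

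The other 40 iron genes followed here, of which 39 were tested, gave 0 calls by edgeR for LPi against HPi in every cell type. By unadjusted p under 0.05 there were 1 in the epidermis, 1 in the cortex sort, 9 in the pericycle, 0 in the stele and 1 in the lateral root cap, where the share over all genes was 0.977%, 4.91%, 12.3%, 3.05% and 6.75%, and calls by DESeq2 and limma voom were not tabulated for them. Among the regulators, ILR3, a factor known to repress ferritin genes, ranged over the group means from 87.4 to 157.8 CPM, and BTS, a ubiquitin ligase that acts on such factors, from 225.2 to 333.4 CPM. PYE, the partner of ILR3 in that repression, ranged from 7.55 to 17.7 CPM and PHR1 from 59.8 to 102.0 CPM. The median fitted change of the 39 was -0.09 in the epidermis, -0.24 in the cortex sort, -0.40 in the pericycle, 0.06 in the stele and 0.02 in the lateral root cap.

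Between cell types some of these genes were called. NRAMP3 and NRAMP4 carry iron back out of the vacuole, and ZIF1 loads its ligand nicotianamine into it. Of the 39 genes, 3 were higher and 0 lower in the cortex sort at LPi, and 6 were higher and 1 lower at HPi. NRAMP4 was among those higher there, with 113.5 ± 10.3 CPM at LPi and 166.1 ± 29.0 CPM at HPi (SD, n = 3), by 1.27 (SE 0.23, adjusted p = 0.000289) and 1.68 (SE 0.23, adjusted p = 4.14e-06) on the log2 scale against the other cell types. In the stele 3 were higher and 2 lower at LPi, and 6 higher and 2 lower at HPi. ZIF1 was among the higher ones, by 2.82 at LPi (SE 0.40, adjusted p = 1.7e-05) and 2.70 at HPi (SE 0.40, adjusted p = 2.29e-05). YSL2, a transporter of the nicotianamine complex, was higher there by 4.68 at LPi (SE 0.62, adjusted p = 8.78e-06) and 3.72 at HPi (SE 0.60, adjusted p = 7.58e-05). The counts were 7 higher and 2 lower at LPi and 6 and 3 at HPi in the pericycle, 5 and 3 at LPi and 4 and 3 at HPi in the epidermis, and 4 and 6 at LPi and 5 and 6 at HPi in the lateral root cap. As a share of the 39, the calls at LPi were 20.5%, 7.69%, 23.1%, 12.8% and 25.6% in the epidermis, cortex, pericycle, stele and lateral root cap sorts, beside 19.5%, 10.3%, 21.8%, 12.4% and 21.3% of all genes. At HPi they were 17.9%, 17.9%, 23.1%, 20.5% and 28.2%, beside 17.8%, 11.4%, 20.4%, 17.7% and 23.9% of all genes, so most shares lay near those of all genes.

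Over the 30 libraries the 7 genes did not vary as a block. The highest correlation between members of log2 CPM was that of VTL1 with VTL5 (Pearson's r = 0.58, Spearman's rho = 0.51, n = 30 libraries), followed by FER2 with VTL1 (0.54 and 0.72) and FER3 with VTL2 (0.54 and 0.50). FER1 with VTL1 had the lowest (-0.48 and -0.34), and FER3 with FER4, the closest in sequence, had 0.06 and 0.02. These correlations describe libraries that share cell types and differ in depth.

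Among genes whose mean log2 CPM was at least 2, those most like FER1 over the 30 libraries were APS4 (AT5G43780; r = 0.79), RBOHB (AT1G09090; 0.79) and AT4G14620 (0.79). Those most like FER3 were TUA4 (AT1G04820; 0.88), AT5G49280 (0.87) and AT1G16860 (0.87), and those most like FER4 were AT5G01160 (0.88), RSZ22a (AT2G24590; 0.88) and HDA05 (AT5G61060; 0.84). VTL1 was most like AT4G14650 (0.89), ATHB-15 (AT1G52150; 0.88) and ABCG33 (AT2G37280; 0.86). FER2 was most like RHM3 (AT3G14790), AT2G01820 and AT5G63940 (0.85 each), though Spearman's rho was lower (0.62, 0.70 and 0.53). These values include pericycle LPi replicate 3, where FER2 stood at 460.0 CPM, against 10.08 CPM or less in every other library. The correlations without that library were not computed. VTL2 was most like RABA1c (AT5G45750; 0.67), RTNLB3 (AT1G64090; 0.67) and AT2G39960 (0.65). VTL5 was most like UGD3 (AT5G15490; 0.71), AT2G40070 (0.71) and AT1G06470 (0.71).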

How the data were processed

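Each library came from sorted root cells, and cDNA was made with the SMART-Seq v4 kit, which does not mark strand. Per the submitters' processing notes, STAR 2.5.3a and HTSeq 1.99.2 were among the tools used. Which genome build, annotation and strand setting they used was not given in the sources used here. The deposited table held raw counts per gene, not normalised by the authors, for 32833 genes in 30 libraries, and the unassigned rows (4.989% to 12.52% of a library) were left out. No column was left unused (0).

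Counts were tested with edgeR 4.0.16 in R 4.3.3. After filterByExpr and TMM, 1 mean was fitted for each of the 10 groups over all 30 libraries (20 residual degrees of freedom, common biological coefficient of variation 0.749). Quasi-likelihood tests were 2-sided, p-values were Benjamini-Hochberg adjusted over the 24866 genes tested, and a call was an adjusted p under 0.05. Each cell type was also set against the mean of the other 4 at the same phosphate level. Log2 CPM used a prior count of 1. Alternatives were DESeq2 1.42.0, limma voom (3.58.1), no filter, 5 CPM in 3 libraries as the filter, RLE size factors, no organellar genes, a replicate block, each sort alone, and fits without certain libraries.

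Deviations of same-numbered LPi and HPi libraries correlated at over 0.1 for each number in the epidermis (0.206, 0.123 and 0.238) and the stele (0.212, 0.111 and 0.166). By a threshold of 0.1 for each number, the numbers pair these libraries by the data only. Stele HPi replicate 2 was, however, most like LPi replicate 3. In the other 3 sorts not every number passed 0.1, though each pericycle HPi library was most like the LPi library of its number (0.0513, 0.0189 and 0.0613). P-values measure the spread between libraries, which may be technical, and amplified reads are not independent molecules.

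The 7 genes and the lists of other genes were chosen with earlier results of these data known. All 7 are described; other iron genes are named only if called or regulators, at most 4 a list, and the genes most alike are the 3 with the highest Pearson's r among genes whose mean log2 CPM was at least 2. Sequences were read from RefSeq TAIR10.1 with Python 3.11.15, Biopython 1.88 and RefSeq names, which matched 32548 of 32833 identifiers. Figures used matplotlib 3.10.9.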

Additional observations from a re-analysis of the deposited data

Results flagged for a closer look

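The LPi and HPi libraries of FER2 separated in opposite directions in a pair of cell types, though neither change was called. A separation in either direction was found for 6.70% of all genes tested in the epidermis and 8.70% in the stele. The nearest epidermis values of FER2 were 2.257 CPM at LPi and 2.199 CPM at HPi, and stele LPi replicate 1 held 1 read. All 3 epidermis libraries at LPi lay above the 3 at HPi (log2 change 0.3512, SE 1.216, edgeR adjusted p = 1, unadjusted p = 0.775), and all 3 stele libraries at LPi lay below the 3 at HPi (log2 change -1.062, SE 1.245, edgeR adjusted p = 1, unadjusted p = 0.402). The test of the difference itself, epidermis minus stele, gave 1.41 on the log2 scale (edgeR, adjusted p = 1, unadjusted p = 0.424).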

How the results depend on the processing

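For LPi against HPi the number of the 7 genes called was 0 in each cell type, in the average and in the joint test, with and without a replicate block, except that in the pericycle it was 1 (FER2) with RLE size factors and 1 with the filter of 5 CPM, and 0 to 1 when libraries were left out in turn. Between cell types at HPi, limma voom called 3 in the cortex sort, 5 in the pericycle and 1 in the lateral root cap. By edgeR these were 1, 2 and 0. Over all genes limma voom called 5747, 12044 and 5527 in the same order. In the stele at HPi limma voom called 6 and DESeq2 4, against 5 by edgeR, with 11575 and 5649 over all genes. With the filter of 5 CPM 3 were called in the stele, against 5, because VTL2 and VTL5 did not pass that filter and were not tested. At LPi, DESeq2 and limma voom each called 2 in the cortex sort, against 1 by edgeR, with 3920 and 3815 over all genes. Limma voom called 4 in the stele and 1 in the lateral root cap, against 0 in each, with 7390 and 7021 over all genes. Without the nearly identical pair 0 were called in the epidermis at LPi, against 1. Leaving out each library in turn gave, at HPi, 1 to 1 in the epidermis and the cortex sort, 1 to 3 in the pericycle, 3 to 5 in the stele and 0 to 1 in the lateral root cap, and at LPi 0 to 1, 1 to 2, 2 to 4, 0 to 2 and 0 to 1 in the same order. FER2 in the pericycle at LPi against the other cell types was 6.146 by edgeR and reversed to -0.1276 with limma voom, to -0.1338 without the 3 shallowest libraries and to -0.08917 without pericycle LPi replicate 3, the range over single libraries left out being -0.08917 to 6.725. The cause was not tested, apart from that library. Over all genes, the pericycle count for LPi against HPi was 1 by edgeR, 1494 by DESeq2, 889 with RLE size factors, 164 with the filter of 5 CPM, and 1091 and 1107 without LPi replicate 1 and 2. The lateral root cap count was 6 by edgeR, 139 by DESeq2, 1 with the replicate block and 0 with limma voom, and over single libraries left out it ran between 109 (without HPi replicate 1 of that sort) and 0 (without HPi replicate 3). RLE scaling moved the median over all genes in the pericycle to 0.02, against -0.26 with TMM. Depth limits FER2, FER4 and the VTL genes most, since 3 reads were 4.98 CPM in the shallowest stele library.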
